A study of Cricetulus griseus with 3 samples.

Results

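Genes for ion channels, for the chloride channels and exchangers of the CLC family, for the CLIC proteins and for the ATP-driven pumps of sodium, potassium and calcium were read in S-1 cells against DAPT-treated CHO cells. Members were the tested spots whose annotation gave 1 gene symbol that began with Kcn, Cacn, Clcn, Ryr, P2rx, Atp1a, Atp1b, Atp2a, Atp2b or Atp2c, or with Scn, Clic, Trpc, Trpm, Trpv or Itpr followed by a digit (which leaves out the epithelial sodium channel genes Scnn1). These were 74 spots of 53 genes, out of 16928 tested spots, of which 12563 carried a single name and stood for 8146 genes. Of the 74 spots, 72 lay in the collection of clones whose names begin with H, and 2 lay at positions for which the study's lists of clones name none (unlisted spots).

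CHO, a long-established cell line, comes from the ovary of the Chinese hamster. S-1 cells derive from the same mother line and stably overexpress γ-secretase, the membrane protease that cuts Notch and other proteins within the membrane. Their constructs include Flag-PEN2, APH1-a2-HA, NCT-GST and PS1, the catalytic subunit, and the study also marks APP as overexpressed in S-1. The cells were kept under selection by hygromycin and zeocin (each at 250 µg/ml), G418 (at 200 µg/ml), puromycin (at 25 µg/ml) and blasticidin (at 10 µg/ml). S-1 cells received 0.05% DMSO for 24 h. The untransfected CHO cells received 10 µM DAPT, a γ-secretase inhibitor, in 0.05% DMSO for the same 24 h. Both lines grew in medium with 10% serum in 10 cm dishes. Each of 3 arrays of mouse cDNA clones paired 1 culture of S-1 with 1 of DAPT-treated CHO in 2 colours (n = 3 arrays throughout), with S-1 in Cy3 on arrays 1 and 2 and in Cy5 on array 3. Hamster RNA was thus read on mouse sequences. S-1 is a single line, and its own history, its constructs, the antibiotics and the lack of inhibitor all distinguish it from the control at once, so that their parts in a ratio cannot be told apart.

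Ion channels are gated pores through which ions run down their gradients, and pumps spend ATP to build those gradients. The Na,K-ATPase exports sodium and imports potassium and needs a β subunit to leave the endoplasmic reticulum, the SERCA pumps fill that store with calcium, and CLC proteins carry chloride across the plasma membrane or exchange it for protons in endosomes and lysosomes. CHO cells are widely used as hosts for cloned channels because their own voltage-gated currents are small. Only ratios were used here, so whether a channel was expressed at all could not be read from these values.

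All values are log2 ratios of S-1 over DAPT-treated CHO, so that a value above 0 is higher in S-1. A spot was called where limma's Benjamini-Hochberg adjusted p over all tested spots was under 0.005. Psenen (PEN2) read 2.84, 3.11 and 3.33 on the 3 arrays, and Aph1a read 1.85, 2.17 and 2.04. Both of these transfected genes were thus higher in S-1 on every array, which checks the direction of all 3 arrays. Across all tested spots, arrays 1 and 2 correlated at r = 0.962 (Pearson), and array 3 correlated with them at r = 0.878 and r = 0.892.

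Most channel spots stayed close to 0. By spots most calls were of pumps, and by genes 3 of the 5 calls were of channels or exchangers. Of the 74 spots, 4 were called higher in S-1 (5.41%, against 9.68% of all tested spots) and 3 lower (4.05%, against 8.52%). Together these were 9.46% of the spots, against 18.2% of all tested spots and 15.3% of the H clones, to which 72 of the 74 belong (6.76% of H clones higher, 8.52% lower). The called spots were those of the chloride/proton exchanger Clcn5, the potassium channel Kcnj11, the Na,K-ATPase β subunits Atp1b1 (3 spots, in both directions) and Atp1b3, and the calcium pump Atp2a2. As gene values (the mean of a gene's spots), 2 of 53 genes were higher, Clcn5 and Kcnj11, and 3 were lower, Atp1b3, Atp2a2 and P2rx4. That was 9.43% of the genes, against 22.6% of all genes, 12.4% higher and 10.3% lower. An unadjusted p under 0.05 was found for 29 of the 74 spots (39.2%), against 48.7% of all tested spots. In bulk RNA, fewer expressing cells and less RNA per cell cannot be told apart.

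The 14 pump spots (8 genes) held 5 of the 7 calls, 2 higher and 3 lower, or 35.7% of the pump spots, and 3 of these 5 were clones of Atp1b1 that went both ways. The 60 other spots (45 genes) held 2, or 3.33%. As gene values, 2 of the 8 pump genes were called, both lower, a share of 25.0% that is near the 22.6% of all genes, and 6.67% of the other genes. The median size of the log2 ratio was 0.24 over the pump spots, 0.099 over the other spots and 0.15 over all tested spots. No test was made of these shares, since clones of 1 gene are not independent.

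**Figure D1:**
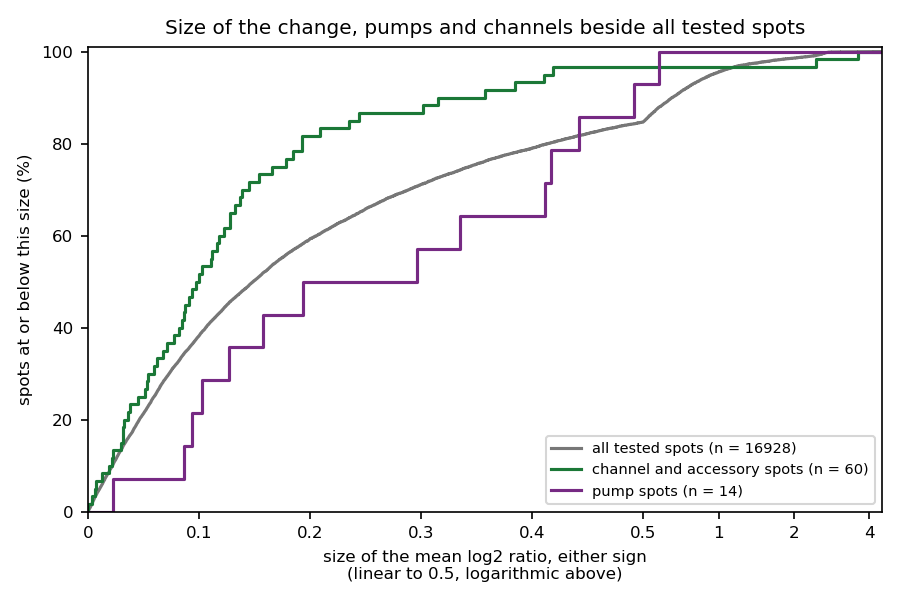
Share of spots (vertical axis, %) whose mean log2 ratio over 3 arrays is at or below a given size in either direction (horizontal axis, linear to 0.5 and logarithmic above), for pump spots, channel and accessory spots and all tested spots. The channel curve rises fastest, with a median of 0.099, the pump curve slowest, with a median of 0.24, and the channel curve ends in the 2 large values of Kcnj11 and Clcn5.

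The CLC family had 4 genes with 1 spot each, and 1 of them was called. Clcn5, the exchanger of early endosomes that proximal tubule cells of the kidney need to take up protein, read 3.67 on array 1, 3.27 on array 2 and 3.88 on array 3. All 3 arrays were far above 0, and the lowest of them exceeded every other value of any member on any array. Its mean was 3.61 ± 0.31 (SD), a ratio of 12.2, with an adjusted p of 1.17e-04 and a 95% interval from 3.30 to 3.91. Clcn1, the chloride channel of skeletal muscle, read 0.085 ± 0.0069 and was not past the threshold (adjusted p = 0.188). Clcn3, of endosomes and synaptic vesicles, read −0.18 ± 0.05 (adjusted p = 0.0351), and Clcn7, of lysosomes and the bone-resorbing border of osteoclasts, read −0.15 ± 0.019 (adjusted p = 0.0438). Both lay below 0 on all 3 arrays without passing.

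The Clcn5 clone, H3093B07, was 1 of 3 H clones with a mean above 3. The others were the Psenen clone (3.09 ± 0.25) and the clone H3093B08, which has no gene name. By the inferred plate layout, H3093B08 came from the next well of the same row of the same source plate. It read 3.66, 3.66 and 3.77, with a mean of 3.70 ± 0.065. The other wells and spots around H3093B07 did not share the high ratio, and those around H3093B08 were not read. The well before, H3093B06 (Rif1), read 0.15 ± 0.18, the wells above and below read −0.041 and −0.04, and the spots printed before and after Clcn5 in its block read 0.23 and 0.093. Whether the high ratio at H3093B07 came from Clcn5 RNA cannot be read from the arrays alone, on which the gene had no second clone. The study's table of primers for real-time PCR includes Clcn5. That table holds as many genes as the study reports to be differentially transcribed by PCR. Its text gives no PCR value for Clcn5, and its PCR measurements were not used here.

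**Figure D2:**
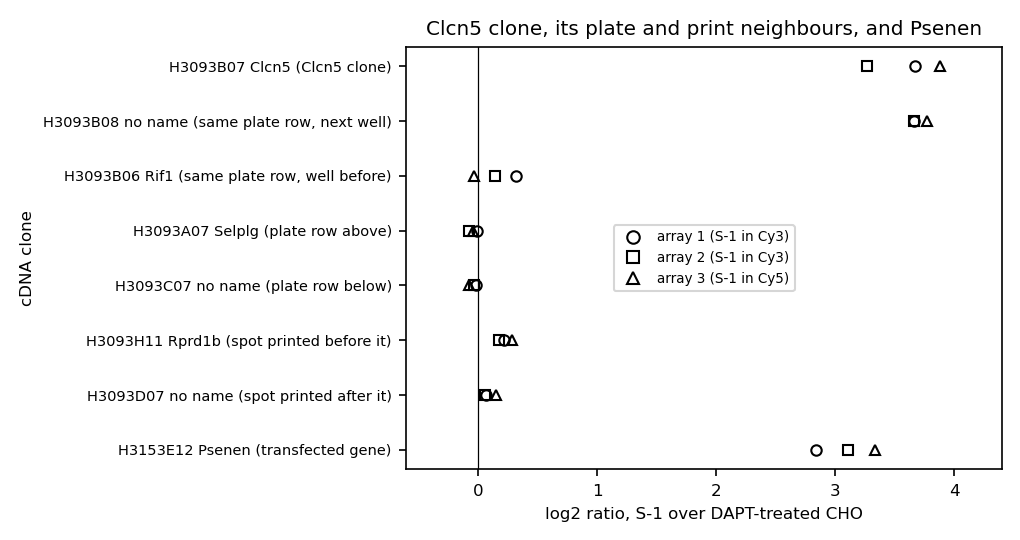
Log2 ratio (horizontal axis) on each of 3 arrays for the Clcn5 clone, the wells beside it on the source plate, the spots printed before and after it, and the clone of the transfected gene Psenen. The clones H3093B07 and H3093B08 lie between 3.27 and 3.88 and the other neighbours between −0.072 and 0.32.

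In the hamster genome the genes that flank Clcn5, counted as 5 on either side, included 2 with a measured value. These were Bmp15 (0.024 ± 0.063) and Usp27x (−0.094 ± 0.21), and neither passed.

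The CLIC proteins are small soluble proteins that can insert into membranes. Neither Clic1 nor Clic4 passed. The Clic4 clone H3013E01 read −0.48, −0.66 and −0.12, a mean of −0.42 ± 0.28 (adjusted p = 0.0339), while the clone H3097C12 read −0.071 ± 0.026. Both Clic4 clones lay below 0 on every array, but the larger one was weakest on array 3, where the dyes were swapped. Clic1 read 0.25 and 0.16 on arrays 1 and 2 and −0.25 on array 3, so its sign turned on that array. The dye swap and the cultures of array 3 cannot be told apart.

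Among the Na,K-ATPase subunits, 3 β subunit genes were measured, and the clones of Atp1b1 split. H3019B01 read 0.48, 0.41 and 0.36, with a mean of 0.42 ± 0.061 (ratio 1.34, adjusted p = 0.0026). H3019E05 read 0.40, 0.40 and 0.43, with a mean of 0.41 ± 0.016 (ratio 1.33, adjusted p = 0.00195). These clones were higher in S-1 on every array.

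H3005E10, named for the same gene, read −0.51, −0.43 and −0.38, with a mean of −0.44 ± 0.068 (1.36 times higher in DAPT-treated CHO, adjusted p = 0.00235). The remaining clone, H3130D06, read 0.10, −0.00077 and 0.18 (0.094 ± 0.091, adjusted p = 0.235). The arrays of the 2 higher clones did not overlap those of H3005E10. The mean of the higher pair exceeded H3005E10 by 0.96, 0.83 and 0.78 on arrays 1, 2 and 3, a mean difference of 0.86 ± 0.092, while the largest SD of any Atp1b1 clone was 0.091. As a gene value the 4 clones averaged 0.12 ± 0.027 and did not pass (adjusted p = 0.0709), so the gene value of Atp1b1 does not show its 3 called spots. Which clone reports the Atp1b1 transcript was not tested.

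Atp1b3, a β subunit of many tissues, read −0.34, −0.35 and −0.32, with a mean of −0.34 ± 0.015 (1.26 times higher in DAPT-treated CHO, adjusted p = 0.00366). The 3 arrays lay within a narrow range below 0. Atp1b2, the β subunit known from glia, read 0.023 ± 0.052 and did not pass. No α subunit, which carries the catalytic site, had a spot with a single name. The 5 calls of the pumps were of small size, with 95% intervals within −0.67 and 0.54, and each was lost without array 1 or without array 2 (adjusted p from 0.0167 to 0.0486 over the 5 spots and both settings), while over those settings the counts over all tested spots fell from 1638 higher to 776 and 263.

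Of the 8 calcium pump spots, 7 had means below 0, against 8110 of 16928 tested spots. Among these 7, 4 were clones of 1 gene, Atp2a2, and so were not independent. Atp2a2 encodes SERCA2, the pump that returns calcium to the endoplasmic reticulum in most cells, and all 4 of its clones had means below 0. H3130B10 read −0.65, −0.46 and −0.37, with a mean of −0.49 ± 0.15 (1.41 times higher in DAPT-treated CHO, adjusted p = 0.00453), and was called. H3109F07 read −0.79, −0.65 and −0.29, with the larger mean of −0.58 ± 0.26, and missed the threshold (adjusted p = 0.0101).

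H3004A09 read −0.27, −0.40 and −0.21 (−0.30 ± 0.098, adjusted p = 0.0123), and H3094C05 read −0.018, −0.11 and −0.34 (−0.16 ± 0.17, adjusted p = 0.158). All 12 values of the 4 clones were below 0. Their spread of 0.42 between clones was wider than the largest SD of a clone, 0.26. As a gene value Atp2a2 fell by 0.38 ± 0.068 on the log2 scale, with −0.43, −0.41 and −0.30 on the 3 arrays (adjusted p = 0.00301). Among the genes beside Atp2a2 in the hamster genome, Ift81, the next gene, was also lower (−0.37 ± 0.038, adjusted p = 0.00244), and the other 5 measured did not pass.

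The other calcium pumps did not pass. Atp2a3 (SERCA3) read −0.13 ± 0.056. The Golgi pumps Atp2c1 and Atp2c2 read 0.086 ± 0.11 and −0.19 ± 0.079. Atp2b1, a calcium pump of the plasma membrane, read −0.33, −0.24 and 0.26, the largest SD among the members at 0.32, and its sign turned on the array with swapped dyes. In all, 10 of 74 spots (13.5%) had the same sign on arrays 1 and 2 and the opposite sign on array 3, against 17.0% of all tested spots.

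**Figure D3:**
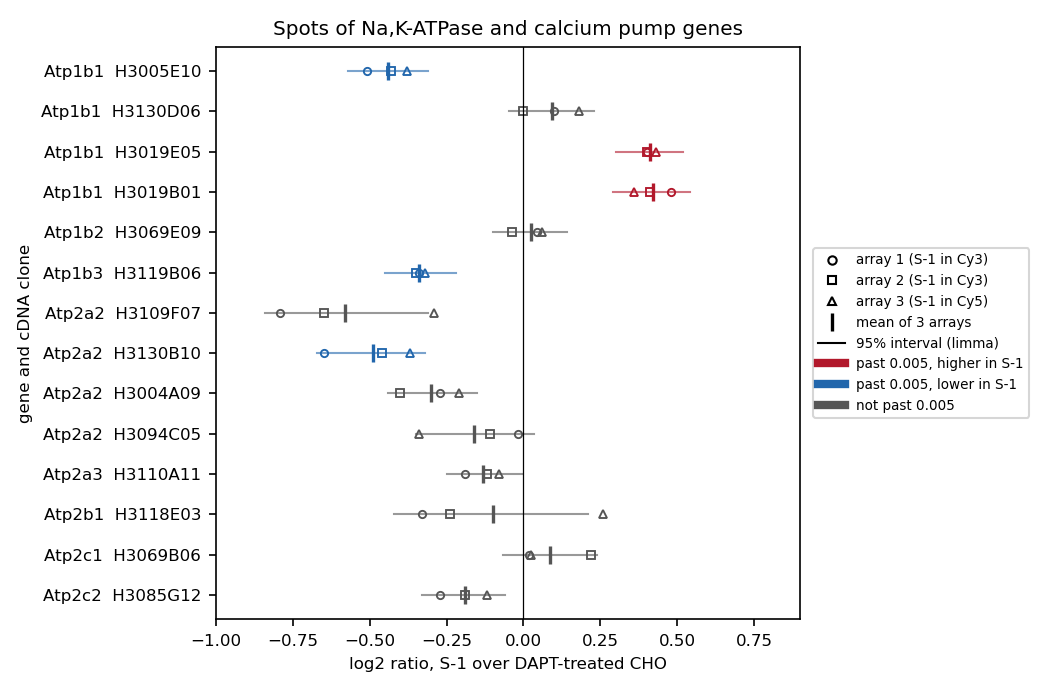
Log2 ratio (horizontal axis) for each of the 14 spots of Na,K-ATPase β subunits and calcium pumps, with the 3 arrays as separate symbols, the mean as a tick and limma's 95% interval as a line, coloured by the call at an adjusted p of 0.005. Clones of Atp1b1 stand on both sides of 0, at −0.44 and at 0.41 and 0.42, and all 4 clones of Atp2a2 lie below it.

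The channels that release calcium from stores had 1 spot each for 2 genes. Itpr2, an inositol trisphosphate receptor, read −0.23, −0.27 and −0.20, with a mean of −0.23 ± 0.037 (adjusted p = 0.013). Ryr2, the ryanodine receptor of heart, read 0.12 ± 0.046 (adjusted p = 0.109). Each kept its sign on 3 arrays and neither passed.

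The potassium channels were the largest group, with 29 spots, and the 1 called spot was that of Kcnj11. Kcnj11 is the pore of the ATP-sensitive potassium channel, which couples metabolism to voltage in pancreatic β cells. Its spot read 2.30, 2.60 and 2.47, with a mean of 2.46 ± 0.15 (ratio 5.49, adjusted p = 1.17e-04), high on every array. The spot was 1 of the 480 unlisted spots, 378 of which (78.8%) were called higher, with a median log2 ratio of 1.56. Of these, 113 stood above Kcnj11. Relative to the median of the unlisted spots on each array Kcnj11 read 0.90. What sets the unlisted spots apart was not tested. Kcnj11 had only this 1 spot, so it has no second reading. Its partner subunit gene Abcc8, which lies next to it in the hamster genome, had no spot of its own.

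The 28 potassium channel spots on H clones (22 genes) held no call by limma, and 6 of them (21.4%) had an unadjusted p under 0.05, against 46.5% of all H clones. Their means ran from −0.31 to 0.24, and their 95% intervals from −0.46 to 0.36. The lowest was Kcnn4, the calcium-activated channel of red cells and lymphocytes, which read −0.39, −0.34 and −0.21 (−0.31 ± 0.096, adjusted p = 0.00978). It was among the 3 spots nearest to the threshold without passing. The related Kcnn1 and Kcnn2, of neurons, read −0.045 ± 0.11 and 0.11 ± 0.074.

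The highest was the Kcnh1 clone H3033G09, an ether-à-go-go channel, at 0.23, 0.24 and 0.26 (0.24 ± 0.012, adjusted p = 0.0101). A different Kcnh1 clone, H3072G09, read −0.054 ± 0.069, and the values of both clones did not overlap. The 4 clones of Kcnq1, a channel of heart and epithelia, read between −0.038 and 0.11, and the 3 clones of Kcnd2, a transient channel of neurons, between −0.088 and 0.13. For Kcnq1 the spread between clones, 0.15, was close to the largest SD of a clone, 0.12. The two-pore leak channels Kcnk1, Kcnk2, Kcnk6, Kcnk10 and Kcnk13 read between −0.053 and 0.13. The accessory subunits Kcnab3, Kcne3, Kcnmb1 and Kcnmb2 read between −0.15 and 0.062, with none called.

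The voltage-gated calcium and sodium channels held no called spot. Cacna1d, a pore subunit of L-type calcium channels, had 3 spots. The unlisted spot read 0.32, 0.17 and 0.41 (0.30 ± 0.12, adjusted p = 0.0153), and the H clones H3044C11 and H3106F01 read 0.098 ± 0.09 and 0.013 ± 0.088. The unlisted spot was the highest of the 3, but 398 of the 480 unlisted spots stood above it, and relative to their median it read −1.25 (adjusted p = 3.55e-04). The sign of this spot therefore turned with the centring, and Cacna1d cannot be given a direction from it.

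The accessory subunits of calcium channels, which bring the pore to the surface and set its gating, read as follows. Cacna2d3 clones read 0.00033 ± 0.069 and 0.17 ± 0.11, Cacnb2 clones −0.023 ± 0.047 and 0.10 ± 0.07, Cacna2d1 0.14 ± 0.13 and Cacng5 −0.082 ± 0.048. None of these 6 spots passed. Scn2b, the β subunit of sodium channels that γ-secretase is known to cut, read −0.12, −0.067 and −0.17 (−0.12 ± 0.05, adjusted p = 0.108), below 0 on 3 arrays without passing.

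The TRP channels are cation channels of many stimuli, and none of the 10 spots was called. Trpm7, a channel fused to a kinase that carries magnesium and calcium, had 4 clones. H3027C06 read −0.64, −0.47 and −0.12 (−0.41 ± 0.27, adjusted p = 0.0333), and H3034H12 and H3034G01 read −0.21 ± 0.091 and −0.18 ± 0.078. H3058G06 read 0.12 ± 0.098, so the clones did not share a sign. The spread between Trpm7 clones, 0.53, was second to that of Atp1b1 among the 11 genes with more than 1 spot. Trpv2 read 0.19 ± 0.07 (adjusted p = 0.0343), the Trpm3 clones −0.032 and 0.004, and Trpc5, Trpm1 and Trpm2 between −0.086 and 0.077.

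The remaining spots near the threshold were both lower in S-1. P2rx4, an ATP-gated cation channel of lysosomes and the plasma membrane, read −0.42, −0.27 and −0.47, with a mean of −0.38 ± 0.10. As a spot it missed the threshold (adjusted p = 0.00569), and as a gene value it passed (adjusted p = 0.00469). Trpc4ap, a binding partner of TRPC channels and not a channel itself, read −0.25, −0.32 and −0.50 (−0.36 ± 0.13, adjusted p = 0.00996). Both were below 0 on every array. Their means were smaller in size than the −0.49 of the Atp2a2 clone H3130B10, which was called (adjusted p = 0.00453). They were slightly larger than the −0.34 of Atp1b3, which was also called (adjusted p = 0.00366).

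**Figure D4:**
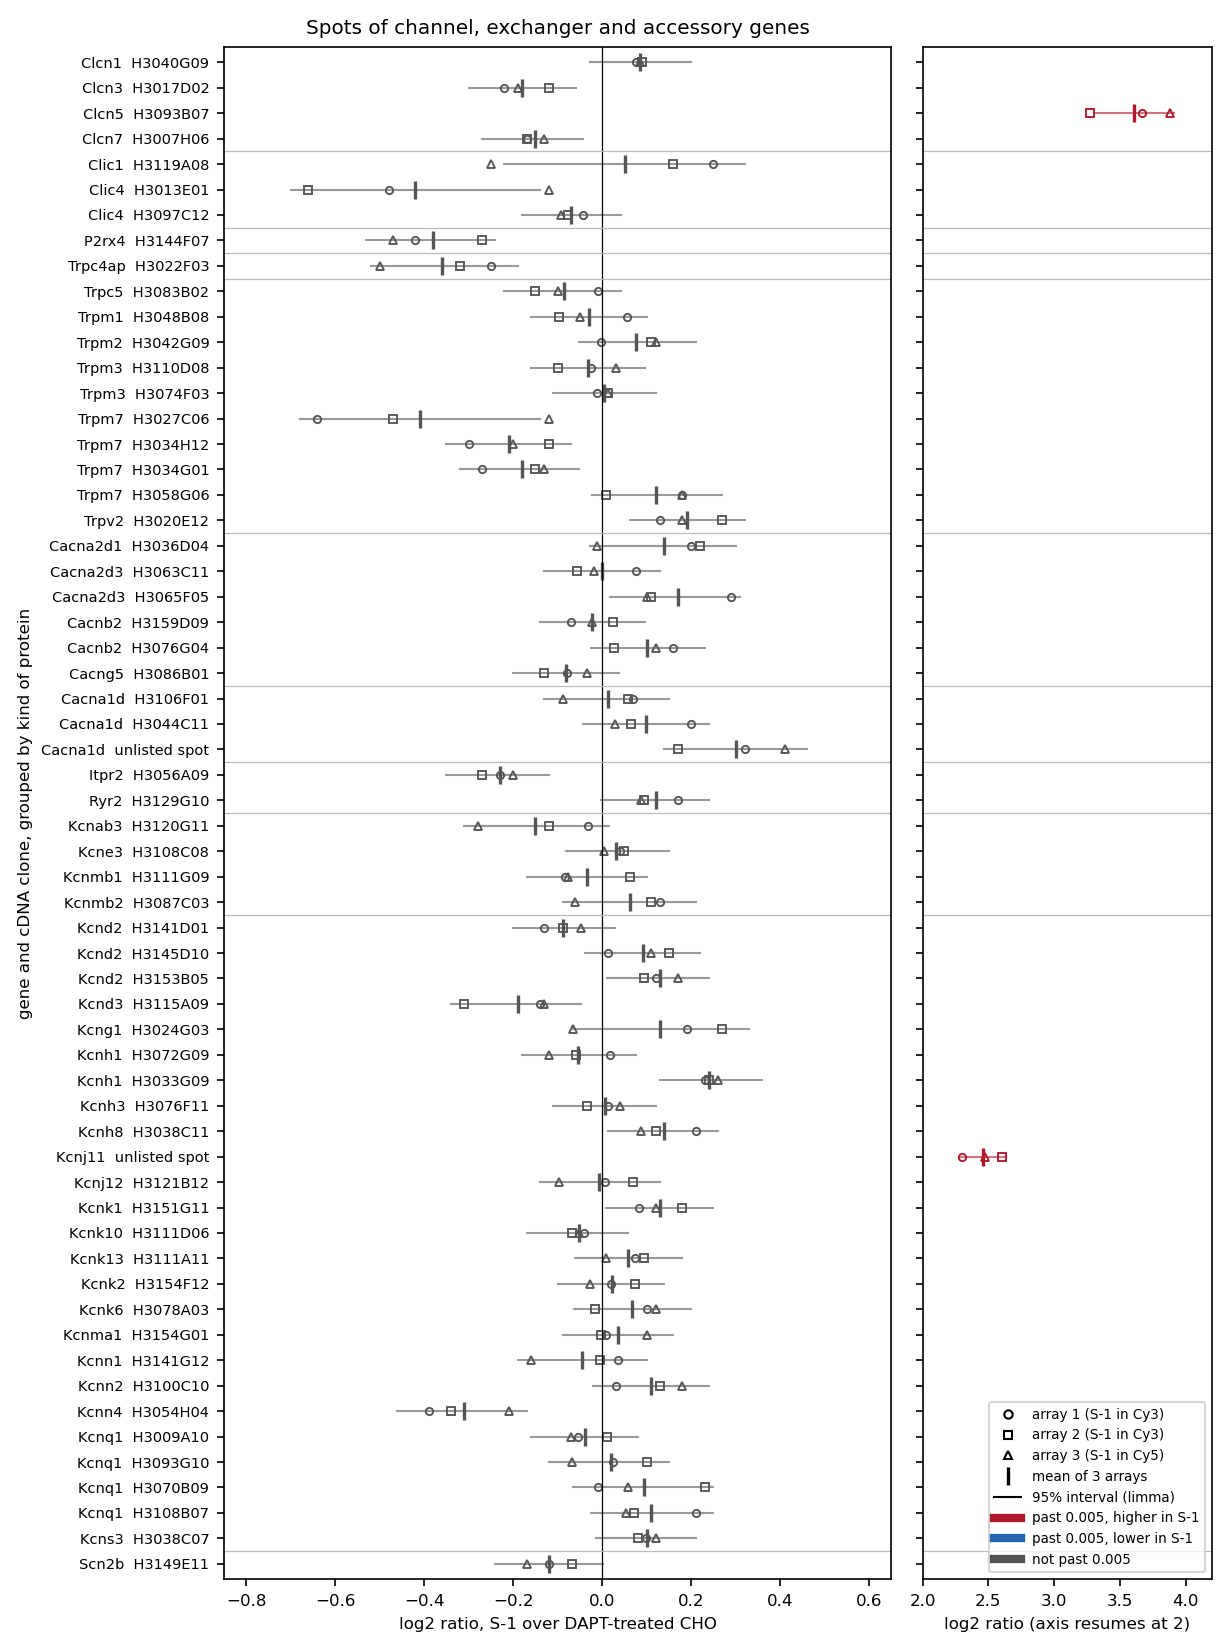
Log2 ratio (horizontal axis, in 2 stretches, the right one from 2) for the 60 spots of channels, exchangers and accessory subunits, with the 3 arrays as separate symbols, the mean as a tick and limma's 95% interval as a line. Clcn5 (3.61) and Kcnj11 (2.46) stand apart, and every other mean lies between −0.42 and 0.30.

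Without Clcn5 and Kcnj11, the other 72 spots had means from −0.58 to 0.42. Across these spots, which share 3 arrays and partly their genes, arrays 1 and 2 of the same dye orientation correlated at r = 0.898, and array 3 correlated with them at r = 0.688 and r = 0.684. With Clcn5 and Kcnj11 included, r was 0.977, 0.951 and 0.951, so the higher values rest on these 2 spots. The same sign on all 3 arrays was seen in 49 of the 74 spots, and in 11435 of the 16928 tested spots.

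Genes that work with these channels and pumps were read from lists. A list of 21 genes held regulators and partners of the Na,K-ATPase together with kinases of chloride cotransporters. Of these, 13 were measured, of which 1 was higher, 3 lower and 9 did not pass. The share called was 30.8%, against 22.6% of all genes, and the median was 0.011, against 0.0092. Fxyd5, a small subunit that modulates the pump, was higher at 0.87 ± 0.082 (adjusted p = 3.08e-04). Its spot, like that of Src, lay outside the H clones that carry the pump genes. Src, a kinase that binds the pump, was lower at −0.77 ± 0.16 (adjusted p = 0.00123), as were Oxsr1 at −0.45 ± 0.08 (adjusted p = 0.00203) and Stk39 at −0.43 ± 0.078 (adjusted p = 0.00222), related kinases that act on chloride cotransporters.

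Of 39 genes of calcium handling, 21 were measured, with 2 higher, 3 lower and 16 not past (median −0.12). The share called, 23.8%, was near the 22.6% of all genes. Tmco1, a leak channel of the endoplasmic reticulum, was higher at 0.69 ± 0.14 (adjusted p = 0.00121). Calr (calreticulin), a chaperone of the same compartment that buffers its calcium, was lower at −0.65 ± 0.21 (adjusted p = 0.00385). Vdac3, a porin of the outer mitochondrial membrane, was higher at 0.53 ± 0.063 (adjusted p = 0.00107). The other lower genes were Canx (calnexin, −0.50 ± 0.064) and Erlin2 (−0.40 ± 0.087), which takes part in the degradation of inositol trisphosphate receptors.

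Of 25 other anion channels and CLC partners, 11 were measured, with none higher, 2 lower and 9 not past (18.2% called). The lower ones were Ano6, a calcium-activated scramblase and channel (−0.50 ± 0.11, adjusted p = 0.00224), and Lrrc8e, a subunit of the volume-regulated anion channel (−0.37 ± 0.07, adjusted p = 0.00328). Of 32 genes listed as other cation channels, 5 were measured, and 1 (20.0%), Tmc6, was lower (−0.59 ± 0.07, adjusted p = 8.64e-04). Whether Tmc6 forms a channel was not tested.

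Markers of the tissues best known for these channels were sparse on the array. Of 16 neuronal and glial markers, 4 were measured. Snap25 was higher (2.63 ± 0.26), on an unlisted spot like that of Kcnj11, Tubb3 was lower (−0.53 ± 0.018), and Gap43 and Mbp did not pass. Of 16 muscle markers, 3 were measured, with Ttn higher (0.47 ± 0.075) and Tnnt1 (−0.70 ± 0.099) and Myh3 (−0.56 ± 0.10) lower. Neither list moved in 1 direction, and their part in the ratios of the channels was not tested.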

How the data were processed

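RNA of S-1 and DAPT-treated CHO cells was amplified, labelled and hybridised to 3 two-colour arrays of mouse cDNA clones. The authors read the arrays with GenePix Pro, normalised each print-tip group by lowess, subtracted no background and deposited a log2 ratio for every spot on each array. Intensities were not used here, so signal over background could not be given, and the 3 arrays limit the precision. Nothing labels spots as controls, so 736 of 17664 spots at 23 positions of each of 32 blocks, whose ratios followed the dye (r = −0.96 between arrays 1 and 3), were left out after their values were seen. Array medians were 0.016, 0.014 and 0.002, and no further normalisation was applied.

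The mean ratio of each spot was tested against 0 with limma 3.58.1 (R 4.3.3) and its moderated variance, which had 3.05 prior degrees of freedom. P-values were adjusted over all tested spots by Benjamini-Hochberg and called under 0.005, the authors' threshold for the false discovery rate. The tested set was not shown to be theirs, since it held the 480 unlisted spots, which their lists of 2658 clones do not name. With the unlisted spots 1638 tested spots were called higher and 1442 lower, and without them 1238 and 1414. Gene values were the mean of the spots with 1 symbol and were fitted likewise. Intervals are limma's 95% intervals, not adjusted. The 3 ratios come from separate cultures, and their SD includes culture, dye and array. Gene names came from the platform annotation, and spots with several names (4 of them of channel genes) were left out. H clone names were inferred from a plate layout fitted to 2102 H clones, each paired to 1 spot by the fold change in the study's lists. The fitted layout, with 3 plates printed turned, matched all 2102, which is no independent check because the fit used them. A further 212 listed H clones had several candidate spots and were not used in the fit. For 212 of these a candidate lay at the inferred name. Flanking genes were taken by order from the hamster RefSeq table (CriGri-PICRH-1.0), in which 48 of 53 symbols matched. Tables and figures were made in Python 3.11.15 with pandas 2.3.3, NumPy 2.4.6, Matplotlib 3.10.9 and SciPy 1.17.1, and the fit was tested on simulated data.

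The members and lists were chosen with earlier results of these data known. Named with full values were genes with a called spot or more than 1 spot, spots of at least 0.5 in size, the 3 spots nearest to the threshold and up to 3 called genes of each list. Other members were named to account for their group, after their values were seen. Settings tried besides were an adjusted p under 0.05, a ratio of at least 1.5, median centring, centring by collection, scaling, quantile normalisation, a dye coefficient, weighted arrays, a robust prior, control spots included, unlisted spots left out, H clones alone, the median of a gene's spots and each array left out.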

Additional observations from a re-analysis of the deposited data

How the results depend on the processing

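Clcn5 and Kcnj11 kept their direction and call under every alternative that tested their spot (15 and 13), from 3.47 to 3.77 and from 0.90 to 2.53. The 4 spots of Atp1b1 and Atp1b3 and the Atp2a2 spot H3130B10 kept their direction and lost the call with control spots included, without array 1, without array 2 and at a minimum ratio of 1.5; H3130B10 also lost it under quantile normalisation and a robust prior. Member spots called higher and lower numbered 4 and 3. With control spots included they were 2 and 0, at a ratio of at least 1.5 also 2 and 0, and at 0.05 they were 7 and 17. Lower spots were 5 with collections centred, 12 with dye as a coefficient and 11 with array weights. With an array left out, higher spots ranged from 2 to 6 and lower spots from 0 to 13. Genes called higher were 1 without unlisted spots or with H clones alone; genes called lower were 7 with dye or array weights, 11 at 0.05, 0 at a ratio of at least 1.5, and 0 to 9 with an array left out.

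Over all tested spots, 1638 and 1442 became 3495 and 3340 with dye as a coefficient, 2774 and 2619 with array weights, 679 and 507 with control spots included, 3545 and 3188 at 0.05 and 964 and 841 at a ratio of at least 1.5. The balance turned to more lower than higher with H clones alone (1050 higher, 1318 lower), with collections centred (1471 and 1728) and without unlisted spots (1238 and 1414). With an array left out they ranged from 263 to 3177 higher and from 100 to 3088 lower. The causes were not tested.

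Signs turned in spots near 0 and in the unlisted Cacna1d spot (0.30). With arrays centred, Cacna2d3 H3063C11 read −0.01 and Trpm3 H3074F03 −0.0064. With collections centred, Cacna2d3 H3063C11 read −0.0019 and the unlisted Cacna1d spot −1.25. With dye as a coefficient, Cacna1d H3106F01 read −0.013, Cacna2d3 H3063C11 −0.0044 and Kcnq1 H3093G10 −0.0022, and with array weights Cacna2d3 H3063C11 read −7e-05. Leaving out an array moved Cacna1d H3106F01 from −0.015 to 0.063, Cacna2d3 H3063C11 from −0.038 to 0.029, Cacnb2 H3159D09 from −0.046 to 0.0012, Kcnq1 H3093G10 from −0.021 to 0.062, Trpm3 H3110D08 from −0.063 to 0.0035 and Trpm3 H3074F03 from −0.00026 to 0.012. No paired analysis was possible because each ratio already pairs the cultures of its array and there is 1 group. Signal over background was not available to set a limit on dim spots.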

Other observations

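Several spots named for a channel and a neighbouring or unrelated gene were left out of the counts because they carry more than 1 symbol. The spot of Ssr3 and Kcnab1 read 0.58, 0.38 and 0.53 (0.50 ± 0.11), and the spot of Pdcd5 and Kcnk2 read 0.088 ± 0.042. Spots named for D330025C20Rik and Kcng2 read −0.32 ± 0.28 and 0.007 ± 0.067. Near Atp1b3 in the hamster genome, Pxylp1 was lower (−0.76 ± 0.17, adjusted p = 0.00139 by limma), while the 6 other measured genes within 5 places did not pass. Among the 3 measured genes beside Atp1b1 none passed, the highest being Blzf1 at 0.32 ± 0.12 (adjusted p = 0.011).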
